A study of Mus musculus with 8 samples.

Results

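A set of 10 genes was followed here in mouse hearts that overexpress FASTKD1, out of 13227 genes with deposited counts. The members were taken by name, in a choice made with earlier results of these data known: the permeability transition genes Ppif, Vdac1, Slc25a4, Slc25a5 and Slc25a3, and the BCL2 family genes Bax, Bak1, Bcl2, Bcl2l1 and Mcl1. All 10 were present in every library and passed the filter on low counts. The series compared 4 hearts lettered A, B, C and E that carry the transgene with 4 non-transgenic hearts lettered A, B, D and E, by RNA sequencing of whole heart. All mice were labelled as males of the inbred strain FVB/N at 3 months of age, and the transgene is the only labelled difference between the groups. The series title calls the overexpression specific to the heart; the promoter behind it and the number of transgenic lines are not given in the sources used here, and each library was taken as 1 animal.

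The permeability transition is the sudden opening of a large pore in the inner mitochondrial membrane under calcium overload and oxidative stress, and in the heart it is best known from reperfusion after ischemia. Cyclophilin D, a prolyl isomerase of the matrix, sensitises the pore, and the adenine nucleotide translocases and ATP synthase are among the proteins proposed to form it. The BCL2 family governs the other route of mitochondrial death, permeabilisation of the outer membrane: BAX and BAK form the opening, BCL2, BCL-XL and MCL1 hold them in check, and BH3-only proteins tip the balance. FASTKD1 belongs to the FASTK proteins, which bind RNA in mitochondria.

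Libraries held 44584359 to 55769859 counts, and values are CPM (counts scaled to a common library size) after TMM scaling. Fastkd1 itself stood at 26.3 (A), 30.2 (B), 192 (D) and 33.8 (E) CPM in non-transgenic hearts and between 8845 and 11516 CPM in transgenic hearts, a log2 fold change of 7.14 with an SE of 0.75 (adjusted p = 0.000684, edgeR), or 8.36 without non-transgenic heart D. The library labelled non-transgenic heart D had no counts of 4 Y-linked genes, although labelled male, where the others had 10372 to 15914. Atrial markers (Myl4, Myl7, Sln and Nppa, summed) reached 572 CPM at most among non-transgenic hearts, in heart D. Among transgenic hearts they reached 2988 CPM at most, in heart A. The atrial gene Bmp10 was not found by symbol among the genes with deposited counts. All 8 cardiomyocyte markers were present, at a summed 58538 to 66659 CPM in non-transgenic and 49043 to 50263 CPM in transgenic hearts. Red blood cell markers summed to 356 to 803 CPM in non-transgenic and 299 to 416 CPM in transgenic hearts. In whole tissue, fewer cells of a type and less RNA per cell cannot be told apart.

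Of the 10 genes, 0 rose and 0 fell in transgenic hearts at an edgeR adjusted p under 0.05, while 1.25% of all 13226 tested genes did, 1.01% upward and 0.242% downward. At an unadjusted p under 0.05 there was 1 member, Slc25a4, against 10.7% of all genes, and DESeq2 and limma-voom also called 0, each with 2 members at an unadjusted p under 0.05. The unadjusted count moved with the setting. It was 3 without non-transgenic heart D, 4 with limma-voom and sample weights, and 5 without non-transgenic D and transgenic A. Among members, 5 had a log2 fold change above 0 and 5 below, with a median of 0.02 beside 0.01 over all tested genes. The differences were small: the lowest was -0.33 (Slc25a4) and the highest 0.30 (Bcl2), and the widest 95% interval of any member ran from -0.08 to 0.68. No member's 95% interval reached a log2 fold change of 1 in either direction.

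**Figure D1:**
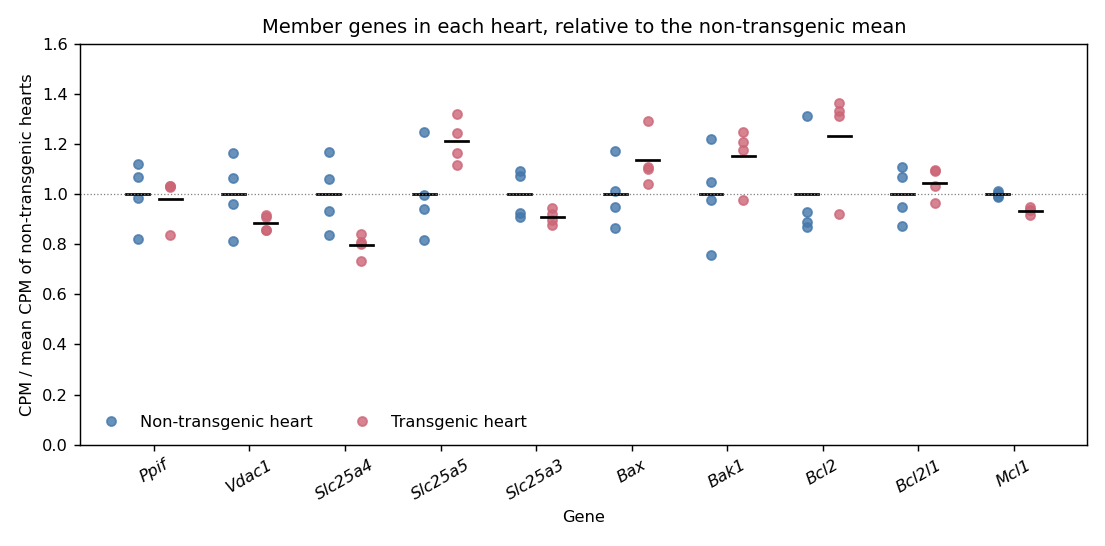
Each point is 1 heart: its CPM of a gene divided by the mean CPM of the 4 non-transgenic hearts, with black bars for group means (n = 4 each). Slc25a4 lies low and Slc25a5 high in transgenic hearts, Mcl1 is the tightest gene in both groups, and the groups overlap for every gene but Mcl1.

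Per kilobase of exon, which allows levels of different genes to be set side by side, Slc25a4 was the most abundant member in non-transgenic hearts at 1704 ± 248 CPM per kilobase, followed by Vdac1 at 468 ± 70.4, Slc25a3 at 217 ± 20.7 and Slc25a5 at 170 ± 30.9 (SD, n = 4). Mcl1 stood at 54.7 ± 0.658, Ppif at 31.7 ± 4.16, Bax at 5.11 ± 0.662, Bcl2l1 at 4.69 ± 0.511, Bak1 at 2.78 ± 0.533 and Bcl2 at 0.962 ± 0.202 on the same scale. Neighbours in this order did not overlap between hearts, apart from Slc25a3 with Slc25a5 and Bax with Bcl2l1. The lengths are unions of all annotated exons, some of retained introns; with the length of the longest coding transcript in their place, Ppif (103 CPM per kilobase) came before Mcl1 (54.7) and the other places were as before. The 4 carrier and channel genes stood above all 5 BCL2 family genes, the nearest pair being Slc25a5 and Mcl1. Raw counts per library ran from 12358 to 20648 for Slc25a5, from 7405 to 10366 for Mcl1 and from 198 to 467 for Bak1.

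Slc25a4 encodes ANT1, the adenine nucleotide translocase of heart and skeletal muscle, and Slc25a5 encodes ANT2, the form found in most other tissues; both exchange matrix ATP for cytosolic ADP. Since reads of similar genes can be hard to assign, the stretch around their longest identical run is shown first, with capitals at the bases that differ. Both stretches cover coding bases 287 to 376 of 894, counted from the first base of the start codon, and lie in exon 2 of 4 of their transcripts (GRCm38, GENCODE M21): Slc25a4 at chr8:46209244-46209333 on the minus strand and Slc25a5 at chrX:36797018-36797107 on the plus strand.
Slc25a4: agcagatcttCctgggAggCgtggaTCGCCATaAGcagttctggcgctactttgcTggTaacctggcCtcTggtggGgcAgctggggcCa
Slc25a5: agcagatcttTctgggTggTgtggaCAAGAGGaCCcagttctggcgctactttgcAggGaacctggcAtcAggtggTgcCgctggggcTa
The 90-base stretches differ at 19 positions, and over the whole coding sequence 692 of 894 positions (77.4%) are identical, the longest identical run being 20 bases. No 50-base word of the Slc25a4 transcript occurs in a transcript of any other gene. Of the 50-base words of the Slc25a5 transcript, 46.6% also occur in at least 1 of 9 other genes, all processed pseudogenes and none among the genes with deposited counts. Read length and the handling of reads with several matches are not given in the sources used here, so the level of Slc25a5 is less certain than that of Slc25a4.

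The 2 translocase genes had fold changes of opposite sign, neither past the threshold. Slc25a4 (ENSMUSG00000031633; chromosome 8, 46206797 to 46211284, minus strand) stood at 4249 (A), 4691 (B), 3353 (D) and 3747 (E) CPM in non-transgenic hearts and at 3375 (A), 3245 (B), 3213 (C) and 2948 (E) CPM in transgenic hearts. Non-transgenic heart D was the only one within the transgenic range, and just below transgenic heart A. The log2 fold change was -0.33 (SE 0.12, 95% interval -0.59 to -0.07), with an unadjusted p of 0.0186 and an edgeR adjusted p of 0.331, so the difference did not pass over all genes. Cardiomyocyte markers were also lower in transgenic hearts, 8 of 8 by their log2 fold changes (median -0.34; 7 at an unadjusted p under 0.05, 0 past the adjusted threshold), and their part in the Slc25a4 value was not tested.

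Slc25a5 (ENSMUSG00000016319; chromosome X, 36795651 to 36798807, plus strand) stood at 280 (A), 350 (B), 229 (D) and 263 (E) CPM in non-transgenic hearts and at 327 (A), 370 (B), 349 (C) and 313 (E) CPM in transgenic hearts. Non-transgenic hearts A, D and E lay below every transgenic heart, and heart B lay within the transgenic range. The log2 fold change was 0.28 (SE 0.13, 95% interval -0.01 to 0.57, edgeR adjusted p = 0.496), and 0.18 without non-transgenic heart D. With limma-voom and sample weights it was the 1 member that passed (log2 fold change 0.39, adjusted p = 0.0300). That fit called more genes in general, 366 up and 236 down of 13226, where the main fit called 133 and 32. Summed markers of 4 other cell types overlapped between groups: endothelium at 742 to 844 CPM in non-transgenic and 740 to 778 CPM in transgenic hearts, fibroblasts at 1255 to 1754 and 1208 to 1689 CPM, macrophages at 97.9 to 147 and 96.3 to 127 CPM, and mural and smooth muscle cells at 644 to 1060 and 773 to 1023 CPM. In the last list Acta2 stood at 131 ± 30.5 and 267 ± 75.4 CPM (SD over 4 hearts each) and did not pass (edgeR adjusted p = 0.0505). The 2 lymphocyte-list genes analysed here, Cd4 and the general leukocyte gene Ptprc, did not overlap when summed, at 12.5 to 20.0 CPM in non-transgenic and 8.69 to 12.4 CPM in transgenic hearts. Neither passed (edgeR adjusted p = 0.808 and 0.283). The part of these cells in the Slc25a5 value was not tested.

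The ratio of the 2 genes within each heart, which no library scaling can alter, separated the groups more clearly than either gene. Slc25a4 had 15.2 (A), 13.4 (B), 14.7 (D) and 14.2 (E) counts per count of Slc25a5 in non-transgenic hearts, and 10.3 (A), 8.76 (B), 9.20 (C) and 9.40 (E) in transgenic hearts. The groups did not overlap, and heart D lay with the other non-transgenic hearts here. The mean ratio was 14.4 ± 0.744 without the transgene and 9.42 ± 0.658 with it (SD, n = 4 each), a log2 difference of -0.61 beside SDs of 0.08 and 0.10 on the log2 scale. Leaving out any 1 heart gave -0.65 to -0.58. Per kilobase of exon the mean ratios were 10.1 and 6.59. No p is given, since the genes were chosen with results of these data known.

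**Figure D2:**
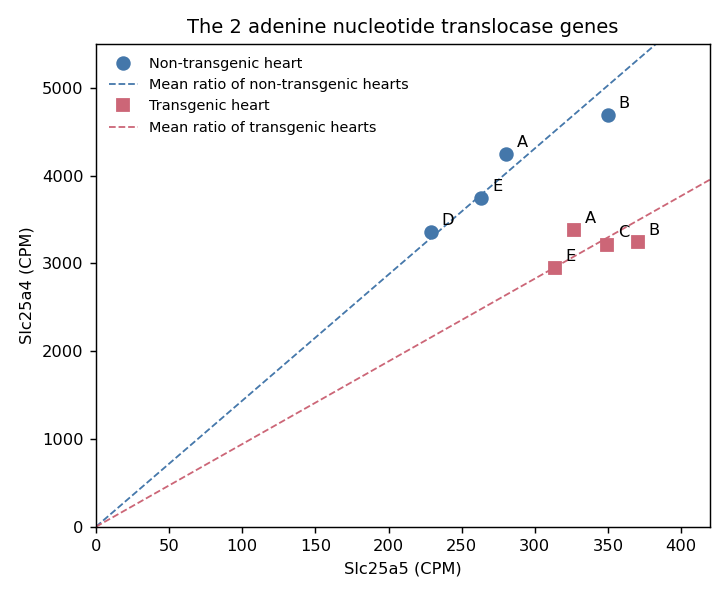
CPM of Slc25a4 against Slc25a5 in each of the 8 hearts, lettered as in the labels, with dashed lines for the mean count ratio of each group. The non-transgenic hearts follow the steeper line (14.4) and the transgenic hearts the shallower one (9.42), with no heart between them.

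Within groups the 2 translocase genes went up and down together: the Pearson r of their deviations from the group means was 0.90 over the 8 libraries, while over all values, group difference included, it was -0.05. These points share library depth, scaling and tissue makeup, and the values are a description. Slc25a4 also went with Vdac1 (r = 0.93, and 0.96 within groups).

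Of the remaining permeability transition genes, Ppif encodes cyclophilin D. Ppif (ENSMUSG00000021868; chromosome 14, 25694154 to 25700468, plus strand) stood at 180 (A), 132 (B), 158 (D) and 171 (E) CPM in non-transgenic and at 134 (A), 166 (B), 165 (C) and 164 (E) CPM in transgenic hearts. Each group had 1 low heart, non-transgenic B and transgenic A, and the other hearts overlapped. The log2 fold change was -0.03 (SE 0.12, 95% interval -0.29 to 0.24, edgeR adjusted p = 0.967) and turned to 0.04 with library totals only or without transgenic heart A, so no direction can be given. An antisense gene, Ppifos, shares 18.3% of the exon bases of Ppif, and whether counting was stranded is not given in the sources used here.

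Vdac1 encodes the main voltage-dependent anion channel of the outer membrane, the passage for ATP, ADP and phosphate. It (ENSMUSG00000020402; chromosome 11, 52360860 to 52389397, plus strand) stood at 1303 (A), 1426 (B), 995 (D) and 1176 (E) CPM in non-transgenic and at 1121 (A), 1114 (B), 1049 (C) and 1049 (E) CPM in transgenic hearts. Non-transgenic hearts A, B and E were above all transgenic hearts and heart D below all of them. The log2 fold change was -0.18 with an SE of 0.12 (adjusted p = 0.669, edgeR). Leaving out non-transgenic heart B gave -0.10, leaving out D gave -0.27, and library totals only gave -0.09. The ratio of Vdac1 to its paralog Vdac2 was 2.96 ± 0.149 counts per count without the transgene and 2.82 ± 0.139 with it (SD, n = 4 each), and its groups overlapped, unlike those of the translocase ratio.

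Slc25a3 encodes the phosphate carrier, which brings phosphate into the matrix for ATP synthesis. Slc25a3 (ENSMUSG00000061904; chromosome 10, 91116574 to 91124059, minus strand) stood at 1313 (A), 1112 (B), 1094 (D) and 1288 (E) CPM in non-transgenic and at 1079 (A), 1135 (B), 1109 (C) and 1054 (E) CPM in transgenic hearts. Hearts B and D lay within the transgenic range and hearts A and E above it. The log2 fold change was -0.14 with an SE of 0.09 (adjusted p = 0.696, edgeR), and -0.09 without non-transgenic heart A or -0.06 with library totals only.

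Of the BCL2 family, the effectors Bax and Bak1 were low, and close to each other in CPM. Bax stood above Bak1 per kilobase of exon in non-transgenic hearts (5.11 ± 0.662 against 2.78 ± 0.533, SD, n = 4). Bax (ENSMUSG00000003873; chromosome 7, 45461697 to 45466898, minus strand) stood at 8.14 (A), 6.96 (B), 9.44 (D) and 7.65 (E) CPM in non-transgenic and at 8.38 (A), 10.4 (B), 8.86 (C) and 8.91 (E) CPM in transgenic hearts. Bak1 (ENSMUSG00000057789; chromosome 17, 27019810 to 27029009, minus strand) stood at 6.55 (A), 5.07 (B), 8.17 (D) and 7.02 (E) CPM in non-transgenic and at 6.56 (A), 8.1 (B), 7.90 (C) and 8.36 (E) CPM in transgenic hearts. For both genes non-transgenic heart D was the highest of its group and heart B the lowest, and the groups overlapped.

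The log2 fold changes of the effectors were 0.18 with an SE of 0.12 (adjusted p = 0.681, edgeR) for Bax and 0.20 with an SE of 0.15 (adjusted p = 0.722, edgeR) for Bak1. Bax was at 0.12 without non-transgenic heart B and 0.10 without transgenic heart B, and Bak1 at 0.09 without non-transgenic heart B and 0.31 without non-transgenic heart D. They went together over the 8 libraries (r = 0.85, and 0.81 within groups), and the ratio of Bax to Bak1 was 1.22 ± 0.123 and 1.19 ± 0.110 counts per count (SD, n = 4 each). Both genes share exon bases with neighbours, Bax 12.2% with the overlapping gene Gm45808 on its own strand and Bak1 with Ggnbp1 on the other strand. These levels are therefore less certain than those of Bcl2l1 and Mcl1, which overlap no annotated exon of another gene.

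Bcl2 encodes the founding guardian protein of the family. Bcl2 (ENSMUSG00000057329; chromosome 1, 106538178 to 106714274, minus strand) stood at 7.66 (A), 8.17 (B), 11.6 (D) and 7.84 (E) CPM in non-transgenic and at 8.1 (A), 12 (B), 11.7 (C) and 11.6 (E) CPM in transgenic hearts. Its values fell into a lower range, held by non-transgenic A, B and E and transgenic A, and a higher one, held by transgenic B, C and E and non-transgenic D. The log2 fold change was 0.30 (SE 0.17, 95% interval -0.08 to 0.68, edgeR adjusted p = 0.603). Without non-transgenic heart D it was 0.45 (adjusted p = 0.209), without transgenic heart A 0.42 (adjusted p = 0.339), and without both non-transgenic D and transgenic A it was 0.58 with an SE of 0.11 (adjusted p = 0.0306, edgeR). The fit without both called 170 genes up and 106 down among 13223 tested. Non-transgenic D and transgenic A are the hearts out of line with their groups for Bcl2. Leaving them out separates the groups by construction, so that p is no support for a difference. These 2 hearts also had the highest atrial markers of their groups, and the part of tissue makeup in the Bcl2 values was not tested. The antisense gene D630008O14Rik shares 6.09% of the exon bases of Bcl2.

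**Figure D3:**
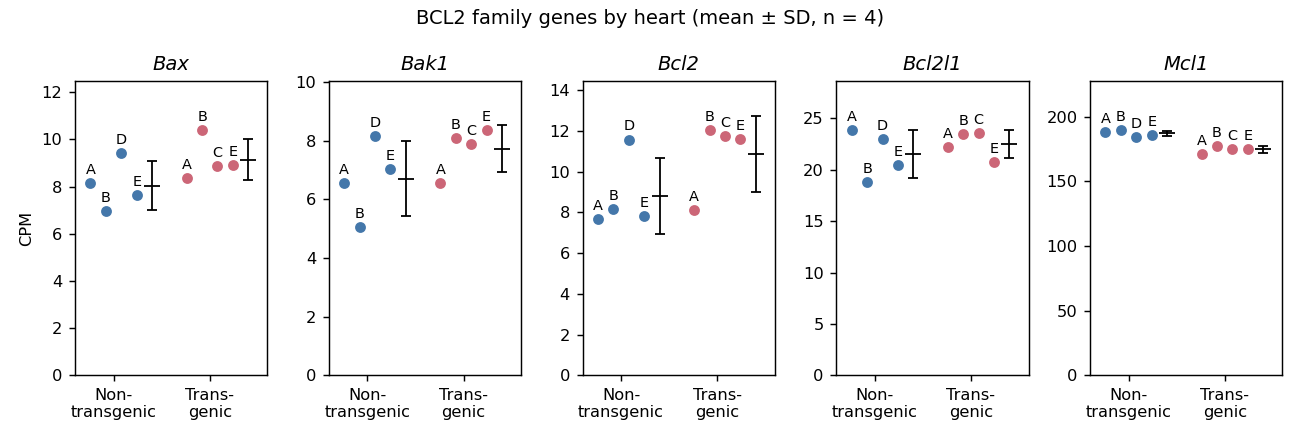
CPM of the 5 BCL2 family members in each heart, lettered as in the labels, with mean and SD beside each group (n = 4); every axis starts at 0. Bcl2 is high in non-transgenic heart D and low in transgenic heart A, while all 4 transgenic hearts lie below the non-transgenic hearts for Mcl1 at this scaling, though not with library totals only.

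Bcl2l1 encodes BCL-XL, a guardian with broad expression. Bcl2l1 (ENSMUSG00000007659; chromosome 2, 152780668 to 152831728, minus strand) stood at 23.9 (A), 18.8 (B), 23.0 (D) and 20.4 (E) CPM in non-transgenic and at 22.2 (A), 23.5 (B), 23.6 (C) and 20.7 (E) CPM in transgenic hearts. All transgenic values lay within the non-transgenic range. The log2 fold change was 0.06 (SE 0.10, 95% interval -0.16 to 0.29, edgeR adjusted p = 0.884). Leaving out non-transgenic heart B gave 0.0049 and leaving out non-transgenic heart A 0.12; it was 0.02 without non-transgenic heart E and 0.03 without transgenic heart B or C.

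Mcl1 encodes a short-lived guardian that adult heart muscle is known to need. Mcl1 (ENSMUSG00000038612; chromosome 3, 95658788 to 95663176, plus strand) was the most even member, at 188 (A), 190 (B), 185 (D) and 186 (E) CPM in non-transgenic and at 171 (A), 177 (B), 175 (C) and 175 (E) CPM in transgenic hearts. It was the 1 member whose groups did not overlap, as was the case for 7.38% of all tested genes. The difference was small, a log2 fold change of -0.10 (SE 0.07, 95% interval -0.26 to 0.07, edgeR adjusted p = 0.723). With library totals only, Mcl1 overlapped (162 to 205 against 169 to 186 CPM) and its log2 fold change was -0.02, while Slc25a4 and Slc25a5 each separated the groups, as did 7.93% of genes at that scaling.

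Balances within the BCL2 family overlapped between the groups. Bax stood at 0.926 ± 0.113 counts per count of Bcl2 in non-transgenic and at 0.855 ± 0.128 in transgenic hearts (SD, n = 4 each). Bcl2l1 stood at 2.50 ± 0.481 and 2.12 ± 0.423 counts per count of Bcl2 (SD, n = 4 each). Mcl1 stood at 8.78 ± 1.04 and 7.78 ± 0.460 counts per count of Bcl2l1 (SD, n = 4 each). These count ratios do not allow for gene length. Per kilobase of exon, the mean ratios in non-transgenic and transgenic hearts were 5.38 and 4.97 for Bax to Bcl2. They were 4.99 and 4.24 for Bcl2l1 to Bcl2, and 11.8 and 10.4 for Mcl1 to Bcl2l1. Outside the family, Ppif stood at 0.0408 ± 0.00872 and 0.0495 ± 0.00687 counts per count of Slc25a4 (SD, n = 4 each), and its groups overlapped too. Of the 7 ratios computed, only that of the translocase genes had groups that did not overlap. Its genes were chosen with results of these data known, and no share over other gene pairs was computed.

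**Figure D4:**
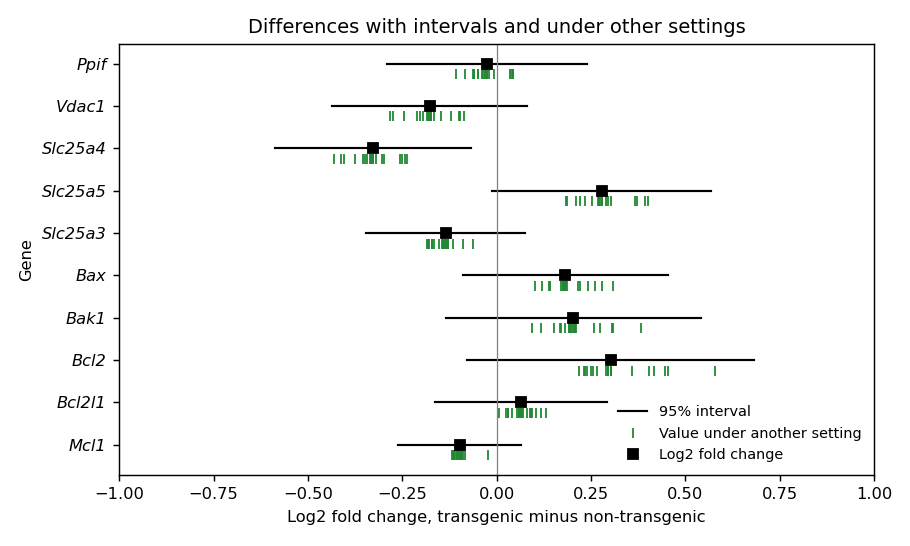
Log2 fold change of each member (square, transgenic minus non-transgenic) with its 95% interval from the edgeR fit, and below it a green tick for each of 19 other settings. Every member but Ppif stays on the same side of 0 under all settings drawn, among them Slc25a4 below and Slc25a5 and Bcl2 above. Ppif lies on both sides of 0, turning upward with library totals only among others.

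Around the members, 109 further genes on 8 lists were tested, of which 5 rose, 0 fell and 104 did not pass, and 19 had an unadjusted p under 0.05, beside 1.25% of all tested genes called and 10.7% under the unadjusted 0.05. Of 20 other permeability transition genes, 0 passed (median log2 fold change -0.10). The smallest p belonged to Gsk3b, a kinase known to bear on opening of the pore, at 70.4 ± 7.85 CPM in non-transgenic and 90.6 ± 3.47 CPM in transgenic hearts (edgeR adjusted p = 0.139), and to Atp5g3, a gene for the c subunit of ATP synthase, at 1201 ± 146 and 962 ± 34.7 CPM (edgeR adjusted p = 0.287). The groups did not overlap for these 2 of the 20 genes, beside 7.38% of all tested genes. Vdac2 and Vdac3, paralogs of Vdac1, had log2 fold changes of -0.10 and 0.07.

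Of 8 BH3-only genes, 0 passed (median -0.04). Bcl2l11, which encodes BIM, stood at 11.4 ± 3.11 and 8.42 ± 1.21 CPM (edgeR adjusted p = 0.455), and Bbc3, which encodes PUMA, at 2.14 ± 0.508 and 2.71 ± 0.271 CPM (edgeR adjusted p = 0.628; SD, n = 4 each). Pmaip1 and Hrk were not found by symbol among the genes with deposited counts. Of 4 further BCL2-like genes 0 passed (median 0.00), with Bcl2l2 (BCL-W) at 0.07 and Bcl2l12 at -0.11 on the log2 scale.

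On the list of apoptosome and caspase genes, 0 of 18 passed (median -0.05). Cycs, the gene of cytochrome c, stood at 228 ± 50.2 CPM in non-transgenic and 176 ± 11.4 CPM in transgenic hearts (edgeR adjusted p = 0.383), and the mitochondrial nuclease gene Endog at 12.6 ± 1.27 and 10.6 ± 0.962 CPM (edgeR adjusted p = 0.453; SD, n = 4 each). Of 7 genes of regulated necrosis 0 passed (median -0.05), with the necroptosis effector gene Mlkl at -0.28 and the calpain gene Capn1 at -0.18 on the log2 scale.

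Of 10 regulators of the BCL2 family, 3 rose and 7 did not pass. Ddit3 encodes CHOP, a transcription factor known to act on Bcl2 and on BH3-only genes, and stood at 17.8 ± 2.52 CPM in non-transgenic and 33.7 ± 2.47 CPM in transgenic hearts (SD over 4 hearts each, edgeR adjusted p = 0.00233). Atf4 and Trib3, which act in the same stress pathway, rose by 1.29 and 4.01 on the log2 scale (edgeR adjusted p = 0.000265 and 5.55e-07). All lists, this one among them, were drawn up with earlier results of these data known. Their counts, and the total over the 109 genes, are therefore no independent evidence. The p53 gene Trp53 (0.21) and Mdm2 (0.06) did not pass, nor did the MCL1 ubiquitin ligase and deubiquitinase genes Huwe1 (0.12) and Usp9x (0.05).

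On a list of 28 other mitochondrial carrier genes, 2 rose, 0 fell and 26 did not pass (median -0.04). Slc25a33, a pyrimidine nucleotide carrier gene, rose from 9.63 ± 1.14 to 16.9 ± 1.26 CPM, and Slc25a39, which is known for mitochondrial glutathione import, from 101 ± 15.6 to 163 ± 21.2 CPM (SD over 4 hearts each, edgeR adjusted p = 0.00414 and 0.0418). Slc25a33 lost its call with a replicate block on title letters (adjusted p = 0.0638), and Slc25a39 under 8 of 19 settings, among them leaving out non-transgenic heart A, D or E or transgenic heart B, C or E (adjusted p = 0.0719 to 0.172). Of 14 genes of mitochondrial content, 0 passed (median -0.10), with the complex I gene Ndufs1 at -0.35 and the chaperonin gene Hspd1 at 0.28 on the log2 scale.

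The genes most like each member, by Pearson r of log2 CPM over the 8 libraries among 8742 genes averaging 3 or more in log2 CPM, were Msrb2 (r = 0.996) and Gnpat (0.994) for Slc25a4, Fyttd1 (0.986) and Nfu1 (0.980) for Slc25a5, and Nmnat3 (0.993) and Mrpl11 (0.992) for Vdac1. For Slc25a3 they were Mif4gd (0.976) and Egln1 (0.973), and for Ppif Tsc2 (0.977) and Pdgfb (0.972). In the BCL2 family they were Aaas (0.930) and Ddost (0.930) for Bax, Cmklr1 (0.993) and Tssc4 (0.989) for Bak1, Klhl20 (0.966) and Kdelc1 (0.964) for Bcl2, P4hb (0.949) and Ttll12 (0.937) for Bcl2l1, and Fhl2 (0.970) and Limch1 (0.966) for Mcl1. None of these genes passed the test between genotypes. As the best of 8742 genes over 8 libraries, such values are a description; for Limch1 r with Mcl1 was 0.68 within groups.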

How the data were processed

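RNA of 8 whole hearts was sequenced after a TruSeq library preparation, per the labels' protocols. The authors deposited raw counts, 1 whole number for each Ensembl gene. TopHat2, cutadapt 1.15 and the build GRCm38 (mm10) are named in the submitters' processing notes. The counter, annotation and strand setting are not given in the sources used here. All genes listed reached 1.00 CPM in at least 2 libraries. Symbols (13215 of 13227 matched), coordinates and transcripts came from GENCODE M21.

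Counts were fitted in R 4.3.3 with edgeR 4.0.16: filterByExpr, TMM, and the quasi-likelihood F test over 13226 genes, with two-sided p adjusted by Benjamini-Hochberg and called under 0.05. No label says that libraries are separate animals; if they are not, p-values measure only the spread between these samples. SE is the absolute log2 fold change over the square root of F; 95% intervals use its t quantile. Alternatives used DESeq2 1.42.0, limma 3.58.1 and sva 3.50.0. Group overlap under other scalings was added after seeing the data. The fit was tested on simulated data with changes larger than those of the members, which says nothing about differences of their size. Counts of 198 or more stand behind every member value.

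Members and lists were chosen with earlier results of these data known. Named genes are all members, called genes of each list or its 2 smallest p, and the 2 genes most like each member; other genes (Acta2, Vdac2, Vdac3, Trp53, Mdm2, Huwe1, Usp9x) were chosen after their values were seen.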

Additional observations from a re-analysis of the deposited data

Results flagged for a closer look

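A gap test for a single outlying heart was run on 36 groups of 4 (the 10 members, 7 ratios and Fastkd1 in each genotype), and 4 were marked; chance marks about 1 in 20 groups. Transgenic heart A was low for Ppif, at 134 CPM where the other transgenic hearts had 164 to 166 CPM. For Bcl2, transgenic heart A was low, at 8.1 CPM where the others had 11.6 to 12 CPM, and non-transgenic heart D was high, at 11.6 CPM where the others had 7.66 to 8.17 CPM. Non-transgenic heart D also had 192 CPM of Fastkd1, where the others had 26.3 to 33.8 CPM. All 4 marks fell on these 2 hearts.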

How the results depend on the processing

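The count of members called, 0, became 1 with limma-voom and sample weights (Slc25a5) and 1 without non-transgenic D and transgenic A (Bcl2), a choice first made with results of these data in view; it was 0 under every other alternative run. The 5 related genes called became 8 with sample weights and 3 with a replicate block on title letters, which called 0 members. Letters A, B and E occur in both groups, but no label says that they pair animals, so they were not taken as pairs. Same-letter hearts deviated with r = 0.30, -0.08 and 0.36. For transgenic A and E this was the highest r with any non-transgenic heart, while transgenic B had its highest with non-transgenic A (0.23). Whether the letters mark pairs cannot be told from these values. Ppif changed sign with library totals only (0.0434) and without non-transgenic D and transgenic A (0.0375), and ranged from -0.108 to 0.0443 when single hearts were left out; the other 9 members kept their direction in all 19 fits. Over all genes, edgeR called 133 up and 32 down, DESeq2 249 and 159, limma-voom with sample weights 366 and 236, a fit with 1 surrogate variable 217 and 97, and the fit without non-transgenic D and transgenic A 170 and 106. The replicate block gave 103 and 21. Leaving out single hearts gave 103 to 168 up and 9 to 72 down: 10 down without non-transgenic A, 50 without B and 72 without D, and 9 without transgenic B and 14 without C. The cause of these moves was not tested. Leaving out single hearts gave 0 members and 4 to 5 related genes called.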
